A study of Mus musculus with 12 samples.

Results

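The proteasome genes described here are the 48 gene rows, of 14244 in the deposited table, whose symbol opens with Psm followed by a letter from a to g and a digit. They comprise 7 alpha-ring genes (Psma1 to Psma7), 7 constitutive beta-ring genes (Psmb1 to Psmb7), 3 immunoproteasome genes (Psmb8, Psmb9 and Psmb10), 6 ATPase and 11 non-ATPase genes of the regulatory cap, 3 chaperones of cap assembly, 4 chaperones of core assembly (Psmg1 to Psmg4), 6 genes of activators and an inhibitor, and Psmc3ip. Psmc3ip has a symbol of this form but encodes a recombination factor and no subunit. The tissue-restricted core genes Psma8 and Psmb11 had no row in the table.

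Poly(A) RNA was sequenced from gut epithelial cells of WT and Chd8L+/- mice, to ask how the loss of 1 copy of Chd8, the gene of a chromatin remodeler associated with autism, alters transcription in the gut. The 5 WT and 7 Chd8L+/- mice were male C57BL/6 littermates, 8 weeks old, with a library for each mouse. In the Chd8L+/- mice 1 of the Chd8 alleles lacks a run of internal exons in the whole body, so effects that arise in the epithelium and in other tissues cannot be told apart, and the WT mice carry no modified allele. The values are read counts per gene that the authors divided by a size factor of each library, here called normalized counts.

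The proteasome is the protease of the cytosol and nucleus that degrades proteins marked with ubiquitin. Its core is a barrel of stacked alpha and beta rings with the active sites on the inner face of certain beta subunits, and a cap of ATPase and non-ATPase subunits binds, unfolds and feeds in the substrates. In lymphoid cells, and in other cells exposed to interferon, inducible beta subunits take the place of the constitutive catalytic ones and form the immunoproteasome, which makes many of the peptides shown on MHC class I. The gut epithelium renews itself rapidly, makes large amounts of secreted and membrane protein, and is in contact with resident T lymphocytes.

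Gene-assigned reads numbered 15691662 to 20761315 a library, and each of the 48 proteasome genes had at least 14 reads in every library. The epithelial label was borne out by 8 of 8 epithelial markers, whose summed normalized count lay between 171873 and 314928 in WT and between 168313 and 289594 in Chd8L+/- libraries. Chd8 itself had normalized counts of 823 to 1050 in WT libraries and of 1084 to 1483 in those labelled Chd8L+/-, which is the opposite of a loss. Its log2 fold change was 0.44 (adjusted p = 0.121 in limma). The count covers the whole gene, so it does not isolate the deleted exons and does not check the genotype. By RT-PCR the study reported lower levels of the deleted exons and higher levels of the opening exon in Chd8L+/- mice. It also reported reduced CHD8 staining in their gut. Those measurements were not analysed here, and all directions below hold for the libraries as labelled. The library of WT replicate 2 stood apart from its group: on the first principal component of all genes tested (39.7% of the variance) it lay at 41.0, among the Chd8L+/- libraries (0.26 to 42.7) and away from the other 4 WT libraries (-67.5 to -26.2). Myeloid markers were higher in Chd8L+/- for 11 of 11 genes (summed count 451 to 901 in WT, 589 to 1464 in Chd8L+/-), and the 7 stromal markers tested were all higher (sum of 9 genes 135 to 605 against 221 to 1992, with Col1a2, Col3a1, Lum and Pdgfra at 0 in some libraries). With DESeq2, edgeR, quantile normalization or a block on the opening letter of the library name, 10 of the 11 myeloid markers were higher. Of 12 lymphocyte markers, 10 had lower means in Chd8L+/- (summed count 2140 to 4520 against 1575 to 3531). With all libraries, none of these markers passed an adjusted p of 0.05 (limma). Without WT replicate 2, 5 myeloid and 3 stromal markers passed as higher, and Ptprc of the lymphocyte and Krt18 of the epithelial markers (-1.34 on the log2 scale) passed as lower. Of all genes tested, 14.0% then passed as higher and 13.6% as lower. That library was singled out from these same data, so adjusted p-values without it, here and below, are a description. The part of these markers in the proteasome values was not tested. In RNA from bulk tissue, fewer cells of a type and less RNA per cell cannot be told apart.

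Transcripts of the 48 proteasome genes, among the 14244 genes of the table, made up 0.330% ± 0.028 of the counted reads in the 5 WT libraries (mean ± SD). In the 7 Chd8L+/- libraries they made up 0.333% ± 0.044. Per kilobase of transcript (the longest basic transcript of GENCODE), the WT means of the core genes ran from 206 for Psma3 to 2462 for Psmb4, with a median of 1251. The 17 subunits of the cap lay lower and closer together, from 359 for Psmd11 to 1325 for Psmc5, with a median of 748. Psmb10, an inducible subunit, stood at 2169 normalized counts per kilobase in WT, between the constitutive Psmb6 at 2090 and Psmb4. The chaperones of core assembly were low, from 99.6 for Psmg2 to 220 for Psmg3. Longest transcripts need not be the ones used in these cells, so the order of genes by level is approximate.

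**Figure D1:**
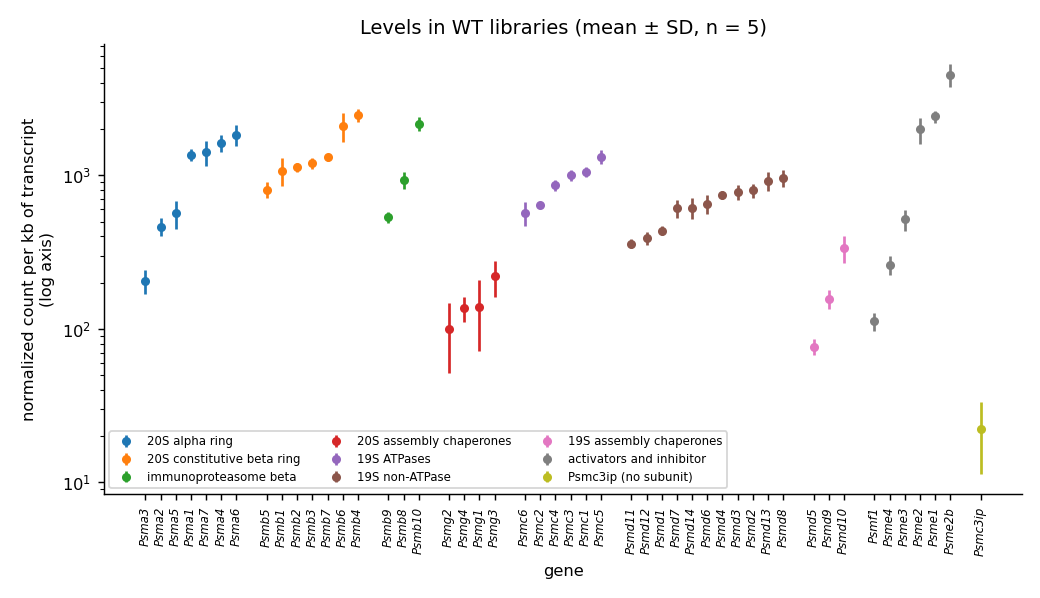
Mean normalized count per kilobase of transcript (log axis) of each of the 48 proteasome genes in the 5 WT libraries, with bars for the SD, grouped by role. Psme2b stands highest at 4503, followed by Psmb4 at 2462 and Psme1 at 2418, and Psmc3ip stands lowest at 22.3. Psme2b may share reads with its nearly identical copy Psme2 and with 9930111J21Rik1 and Gm12185, which overlap it on its own strand.

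The comparison of genotypes asked whether the proteasome as a whole differed in the Chd8L+/- epithelium. No proteasome gene passed an adjusted p of 0.05 in limma. The median log2 fold change (Chd8L+/- minus WT) of the 48 genes was -0.08, a difference of -5.55%, beside 0.014 over the 12808 genes tested. By sign, 35 genes had a lower and 13 a higher mean in Chd8L+/-, and the extremes were Psmb8 at -0.42 and Psmg2 at 0.55. Fold changes here are on the log2(normalized count + 1) scale.

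The lowest adjusted p among the 48 genes was 0.125 (limma with Benjamini-Hochberg adjustment over all genes tested), where 0.0234% of all genes tested passed 0.05. Without adjustment, 5 of the 48 genes (10.4%) had p of 0.05 or less and a lower mean in Chd8L+/-, beside 11.8% of all genes tested, and 0 had such a p and a higher mean, beside 12.5%. The 5 genes were Psmd13, Psmd10, Psmb10, Psmb5 and Psmb1, a share close to that of all genes. No proteasome gene had groups without overlap, which 0.515% of all genes tested had. On recovered reads, edgeR called 0 of the 48 genes at an adjusted p of 0.05 and 3 at an unadjusted one, and DESeq2 called 1, Psmd13 (adjusted p = 0.0464), where it called 6.44% of the genes it gave an adjusted p.

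The excess of lower means varied with the processing. It was 34 lower and 14 higher with DESeq2, and 32 lower and 16 higher with edgeR. With a block on the opening letter of the library name it was 35 and 13, and without WT replicate 2 it was 33 and 15. Proteasome transcripts are short, with a median of 1.44 kb (1.16 kb for the core and 1.89 kb for the cap) beside 3.07 kb for all genes tested. Once each library was corrected for its trend on length and GC content, 27 genes were lower and 21 higher, the median log2 fold change was -0.01 beside -0.02 over all genes, and 4 lower and 4 higher genes had an unadjusted p of at most 0.05. After quantile normalization, 28 genes were lower and 20 higher, with 1 lower and 2 higher at that threshold. The cause of the differences between settings was not tested.

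Leaving out WT replicate 2 brought 6 of the 48 genes (12.5%) past an adjusted p of 0.05 in limma, a share below the 27.6% of all genes tested that then passed. Psmd13, Psmd10, Psmb10 and Psmd8 were lower (13.6% of all genes), and Psmg1 and Psmg2 were higher (14.0% of all genes). Without that library, Psmd13, Psmd8 and Psmb10 were lower in every Chd8L+/- library than in any of the other 4 WT libraries, and Psmg1 was higher in every one, a separation that 14.4% of all genes tested showed.

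**Figure D2:**
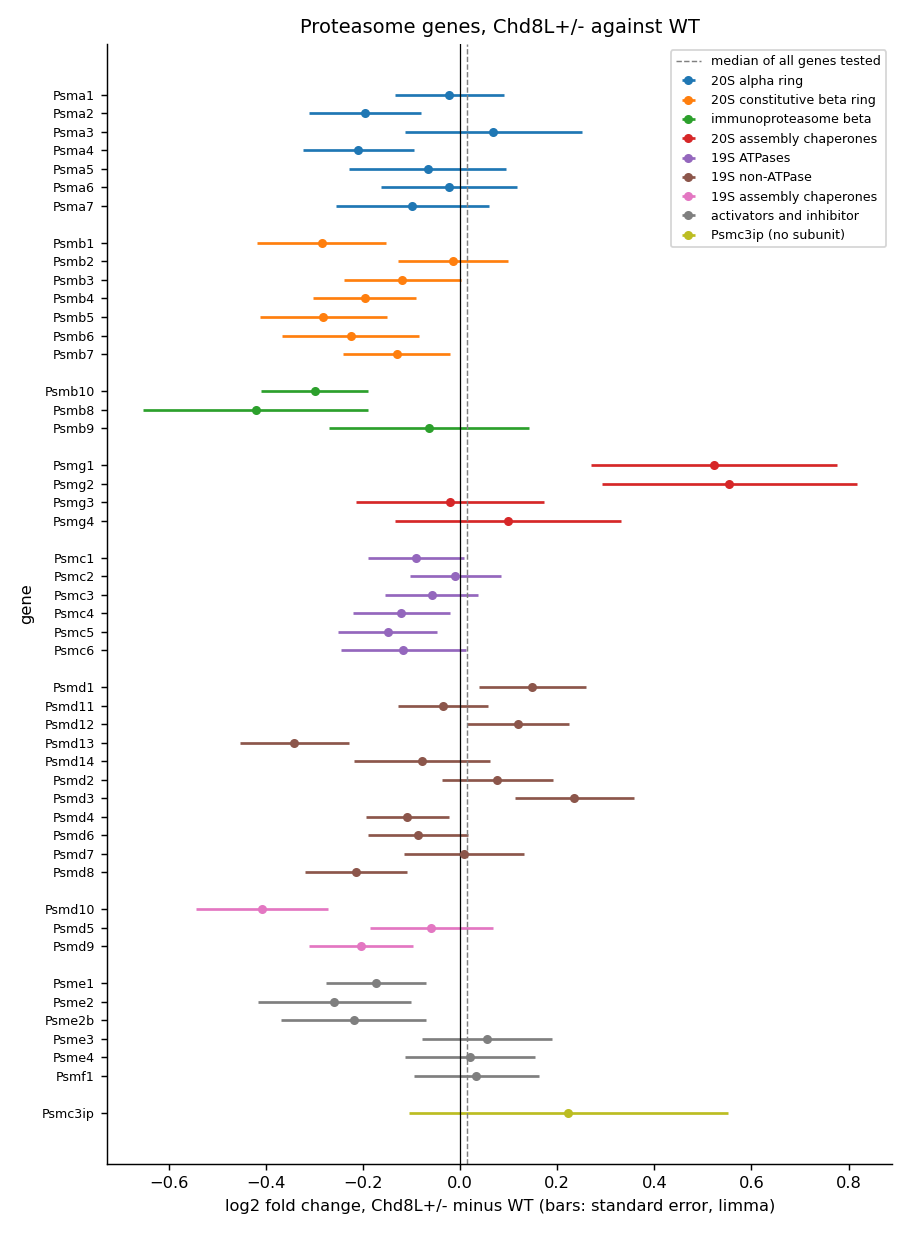
Log2 fold change (Chd8L+/- minus WT) of each of the 48 proteasome genes with its standard error from limma, grouped by role, and a dashed line at the median of all genes tested, 0.014. Most genes lie within 0.2 of 0 on the log2 scale, Psmb8 lies farthest to the left at -0.42, and Psmg1 and Psmg2 lie farthest to the right at 0.52 and 0.55 with wide bars.

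The 7 alpha-ring genes, which form the outer rings and the gate of the core, had no member past the test. Their median log2 fold change was -0.07, with 6 lower and 1 higher and none at an unadjusted p of 0.05, but it changed sign, to 0.03 with 5 of 7 higher once the length and GC trend was removed, and to 0.02 with 4 of 7 higher after quantile normalization. Without WT replicate 5 the median was 0.02, without Chd8L+/- replicate 1 or 2 it was -0.005 or -0.003, and without WT replicate 4 it was -0.15. Psma4 had the lowest value, -0.21 (standard error 0.11, limma adjusted p = 0.267), and Psma3 the highest, 0.07 (standard error 0.18, adjusted p = 0.843). Alpha genes spread widely within each genotype. Psma7 ran from 1378 to 2128 in WT and from 1074 to 1908 in Chd8L+/- libraries.

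The 7 constitutive beta-ring genes all had lower means in Chd8L+/-, with a median log2 fold change of -0.20, though with the length and GC trend removed 5 were lower and 2 higher and the median was -0.01, and after quantile normalization 6 were lower with a median of -0.04. The values ran from -0.29 for Psmb1 to -0.01 for Psmb2, and the unadjusted p was below 0.05 for Psmb1 and Psmb5. Without WT replicate 5 the median was -0.11. Psmb5, Psmb6 and Psmb7 carry the chymotrypsin-like, caspase-like and trypsin-like active sites, and Psmb1 to Psmb4 are structural.

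Psmb5 (chromosome 14, 54614119 to 54618022 of GRCm38, minus strand, overlapping the microRNA gene Mir686) had normalized counts of 673, 722, 640, 730 and 865 in WT replicates 1 to 5. Its Chd8L+/- libraries ran from 467 through a median of 624.5 to 745. Of the 7 Chd8L+/- libraries, 5 lay below all WT libraries and replicate 6 lay above 4 of them. The log2 fold change was -0.28 (standard error 0.13, 95% interval -0.56 to -0.003, adjusted p = 0.202 in limma), and -0.08 without the length and GC trend.

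Psmb6 (chromosome 11, 70525367 to 70527858, plus strand) had normalized counts of 1438, 1607, 1590, 1423 and 2281 in the WT replicates. In Chd8L+/- it ran from 1082 through a median of 1463 to 1663. The groups overlapped, and the highest WT value, in replicate 5, was well above the rest. On the log2 scale the difference was -0.23 (standard error 0.14, adjusted p = 0.329 in limma), and -0.01 without the length and GC trend.

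Psmb7 (chromosome 2, 38588036 to 38644087, minus strand, overlapping Nek6 on the other strand) had 1467, 1610, 1481, 1424 and 1602 normalized counts in WT and from 1144 through a median of 1363 to 1698 in Chd8L+/- libraries. Of the Chd8L+/- libraries 4 lay below all WT libraries and 1 lay above all of them, and the fold change on the log2 scale was -0.13 (standard error 0.11, adjusted p = 0.476 in limma), and -0.01 without the length and GC trend.

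Psmb1 (chromosome 17, 15475021 to 15499751, minus strand), a structural beta subunit, had the largest difference of this ring. It had 1659, 1976, 2150, 1972 and 2806 normalized counts in WT, and from 1415 through a median of 1777 to 1969 in Chd8L+/- libraries. Each Chd8L+/- library was under the median of WT, and 2 were under every WT library. Its log2 fold change was -0.29 (standard error 0.13, adjusted p = 0.204 in limma, unadjusted p = 0.0379 in a two-sided exact permutation test over libraries), and -0.26 without the length and GC trend and -0.15 after quantile normalization.

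Proteasome genes are known to respond together to reduced proteolysis through the factor encoded by Nfe2l1, which binds antioxidant response elements near their promoters, while the immunoproteasome and Psme1 and Psme2 respond to interferon. The promoter sequences of Psmb5 and Psmb6 are shown because both hold the antioxidant response element core, and that of Psme1 because it holds the interferon-stimulated response element core. They are RefSeq sequences on GRCm38.p6, from 250 bases before to 30 bases after the annotated start of transcription, read 5′ to 3′ on the strand of the gene, with the motif match in capitals. The windows are chr14:54617966-54618245 (minus strand) for Psmb5, chr11:70525107-70525386 (plus strand) for Psmb6 and chr14:55578244-55578523 (plus strand) for Psme1. The whole Psme1 window lies inside the GENCODE gene.
Psmb5: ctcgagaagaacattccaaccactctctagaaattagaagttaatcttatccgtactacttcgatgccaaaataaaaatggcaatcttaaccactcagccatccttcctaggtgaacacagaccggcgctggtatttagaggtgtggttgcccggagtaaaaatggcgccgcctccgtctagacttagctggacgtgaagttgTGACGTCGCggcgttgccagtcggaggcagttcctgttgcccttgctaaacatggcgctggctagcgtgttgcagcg
Psmb6: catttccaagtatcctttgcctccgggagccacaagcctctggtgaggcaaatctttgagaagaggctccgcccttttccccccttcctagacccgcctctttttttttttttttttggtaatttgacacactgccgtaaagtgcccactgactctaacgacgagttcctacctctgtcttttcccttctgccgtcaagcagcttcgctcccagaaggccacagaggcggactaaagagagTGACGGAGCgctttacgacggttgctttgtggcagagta
Psme1: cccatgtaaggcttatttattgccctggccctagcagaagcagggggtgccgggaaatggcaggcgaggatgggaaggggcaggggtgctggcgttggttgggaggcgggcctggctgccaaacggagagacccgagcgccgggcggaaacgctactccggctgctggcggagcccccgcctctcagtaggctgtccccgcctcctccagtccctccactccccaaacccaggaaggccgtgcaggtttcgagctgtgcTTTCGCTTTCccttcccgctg

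The antioxidant response element core was searched as TGACNNNGC on both strands of windows of 300 bases (250 before to 50 after the start). A match stood in the windows of 6 of 41 proteasome genes found in the RefSeq table (14.6%: Psmb5, Psmb6, Psmc6, Psmd9, Psmd12 and Psme4) and of 13.99% of all 27025 genes. The match began 47 bases before the start in Psmb5 and 9 bases before it in Psmb6. The interferon-stimulated response element core (GAAA, any 2 bases, GAAA, on both strands) stood in 5 of 41 (12.2%: Psmb3, Psmd4, Psmd9, Psme1 and Psmg4) and in 3.99% of all genes, and in Psme1 it began at base 10 of the transcript on the opposite strand. The CCAAT box stood in 14 of 41 (34.1%) and in 41.1% of all genes. The interferon motif was not found in these windows of Psmb8, Psmb9 and Psmb10. For Psmb8, Psmb9 and Psme1 the start used lies inside the GENCODE gene, and so does the whole window. Sequence before these genes was therefore not searched. The absence in Psmb8 and Psmb9 says nothing of it, and the match in Psme1 lies inside the gene and not before it. A match of letters is a description of the sequence and not a measured site.

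Nfe2l1 had normalized counts of 1328 to 2038 in WT and 1554 to 2005 in Chd8L+/- libraries (log2 fold change 0.16, standard error 0.12, adjusted p = 0.414 in limma). Of 10 genes of proteasome transcription control, 6 were lower and 4 higher, with a median log2 fold change of -0.04 (0.02 after quantile normalization), and 1 had an unadjusted p below 0.05. That gene was Ufd1, a partner of the extracting ATPase Vcp, at -0.26 (standard error 0.10, adjusted p = 0.154 in limma), and at -0.33 (adjusted p = 0.0209) without WT replicate 2. The related factors Nfe2l2 and Nfe2l3 were at 0.10 (standard error 0.13) and -0.44 (standard error 0.37).

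Of the 3 immunoproteasome genes, Psmb8 and Psmb9 spread widely among the Chd8L+/- libraries, with coefficients of variation of 39.2% and 34.2% beside 12.4% and 8.35% in WT. Psmb10 had 10.5% in Chd8L+/- and 9.94% in WT. The median over the 14 core genes was 14.5% and 12.8%, and the differences in spread were not tested. Their median log2 fold change was -0.30, with 3 of 3 lower, and -0.17 with 2 of 3 lower once the length and GC trend was removed. Psmb10 alone of the 3 had an unadjusted p below 0.05.

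Psmb8 (chromosome 17, 34197721 to 34201454, plus strand) encodes the inducible counterpart of Psmb5. Its normalized counts were 1472, 1255, 1686, 1454 and 1710 in WT, and from 687 through a median of 1287 to 2052 in Chd8L+/- libraries. Chd8L+/- replicates 1, 2 and 6 lay below every WT library, replicate 3 lay above every one, and the remaining 3 lay within the WT range. The difference on the log2 scale was -0.42 (standard error 0.23, 95% interval -0.92 to 0.08, adjusted p = 0.271 in limma).

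Psmb9 (chromosome 17, 34181987 to 34187764, minus strand) encodes the inducible counterpart of Psmb6 and overlaps Tap1 on the other strand. As the use of strand in the counting is not given in the sources used here, reads from this overlap could be assigned to either. Its normalized counts were 665, 695, 792.5, 682 and 786 in WT, and from 451 through a median of 755 to 1168 in Chd8L+/- libraries. There were 3 Chd8L+/- libraries below all WT libraries and 3 above all of them, and the log2 fold change was -0.06 (standard error 0.21, adjusted p = 0.872 in limma). Its sign turned to positive under edgeR, DESeq2, a block on the opening letter of the library name and the length and GC correction.

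Psmb10 (chromosome 8, 105935735 to 105938444, minus strand) encodes the inducible counterpart of Psmb7. Its normalized counts were 2687, 2426, 3116, 3019 and 2969 in WT, and from 1906 through a median of 2305 to 2641 in Chd8L+/- libraries. Each Chd8L+/- library was under the median of WT, 5 were under every WT library, and the lowest WT library was replicate 2. A log2 fold change of -0.30 was found (standard error 0.11, 95% interval -0.53 to -0.07, adjusted p = 0.138 in limma, unadjusted p = 0.0101 in a two-sided exact permutation test). Without WT replicate 2 it was -0.36 (adjusted p = 0.0267 in limma). With the length and GC trend removed it was -0.17, and after quantile normalization -0.16, and in both its unadjusted p was above 0.05.

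**Figure D3:**
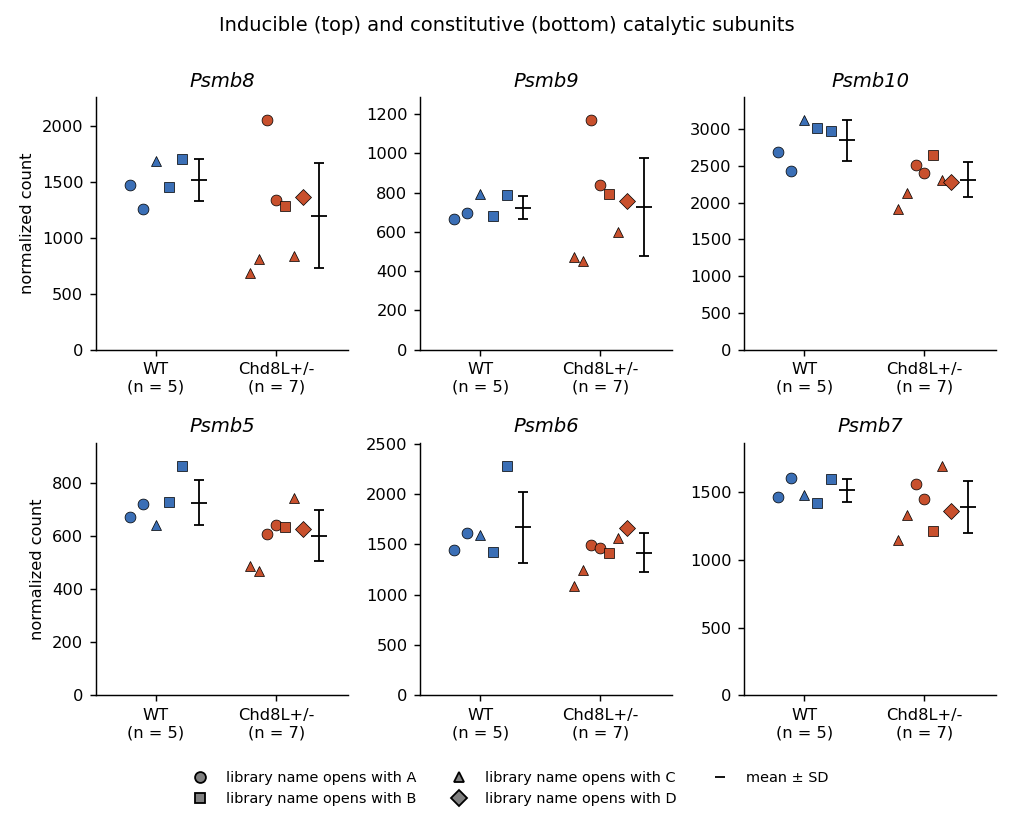
Normalized count in every library (points, with the marker shape giving the opening letter of the library name) and mean ± SD (bars) of the inducible catalytic subunits in the upper row and their constitutive counterparts in the lower row, for 5 WT and 7 Chd8L+/- libraries. The 3 Chd8L+/- libraries whose name opens with C are the lowest for Psmb8 and Psmb9, Psmb10 is lower in most Chd8L+/- libraries than in WT, and the constitutive subunits overlap between groups.

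The 3 low Chd8L+/- libraries share the letter C, which opens their library names in the labels. The meaning of the letters is not given in the sources used here, and the single WT library with this letter, replicate 3, was not low. Within the letter C (1 WT and 3 Chd8L+/- libraries) the log2 difference between genotypes was -1.12 for Psmb8, -0.65 for Psmb9 and -0.56 for Psmb10. Within the letter A (2 WT and 2 Chd8L+/- libraries) it was 0.29, 0.54 and -0.06, and within B (2 and 1) it was -0.29, 0.12 and -0.18. The letter D holds 1 Chd8L+/- library and no WT library. Of these 3 genes, Psmb10 alone had the same sign in all 3 letters. These are values of few libraries with no test.

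The 3 libraries of lowest Psmb8 were also low in lymphocyte markers and in interferon-linked genes, as was replicate 4 in the former. The summed count of the 12 lymphocyte markers was 1667, 1961 and 1575 in replicates 1, 2 and 6, and 2979, 1846, 3531 and 3227 in replicates 3, 4, 5 and 7. Tap1, a subunit of the peptide transporter of the MHC class I pathway, ran from 1143 to 1548 in WT and from 997 to 2577 in Chd8L+/- libraries, with its lowest values within the letter C (997 to 1058). Within the letter C Nlrc5, the transactivator of MHC class I genes, had 66.5 to 75.1 normalized counts in the Chd8L+/- libraries and 78.6 in the WT one, and within A 158 to 270 and 105 to 138. Their part in the Psmb8 and Psmb9 values was not tested.

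Each inducible subunit replaces a constitutive one in the ring, so the log2 difference of the pair within a library was compared between genotypes. No pair passed the test. Psmb8 minus Psmb5 was 1.06 ± 0.22 in WT (mean ± SD) and 0.92 ± 0.50 in Chd8L+/-, a difference of -0.14 (two-sided exact permutation test, p = 0.598, adjusted over the 3 pairs 0.598). Psmb9 minus Psmb6 was -1.18 ± 0.21 and -1.02 ± 0.39, a difference of 0.16 (exact permutation p = 0.447, adjusted 0.598). Psmb10 minus Psmb7 was 0.90 ± 0.20 and 0.73 ± 0.20, a difference of -0.17 (exact permutation p = 0.17, adjusted 0.511), and reached p = 0.039 in the exact permutation test, unadjusted, only without Chd8L+/- replicate 5 (difference -0.23). The smallest p this test can give is 0.00126. Per kilobase, the WT ratio of inducible to constitutive level was 1.15 for Psmb8 over Psmb5, 0.256 for Psmb9 over Psmb6 and 1.66 for Psmb10 over Psmb7.

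Of 12 genes of MHC class I antigen processing, which use the peptides of the immunoproteasome, 6 were lower and 6 higher in Chd8L+/-, and 1 lower and 2 higher had an unadjusted p below 0.05 (3 lower and 9 higher after quantile normalization). B2m, the invariant light chain of MHC class I, was at -0.51 on the log2 scale (standard error 0.22, adjusted p = 0.186 in limma), and at -0.71 (adjusted p = 0.0112) without WT replicate 2, while after quantile normalization no gene of this list was below -0.19. H2-D1, a class I heavy chain, was at -0.36 (standard error 0.24, adjusted p = 0.352), and at -0.58 (adjusted p = 0.0331) without that library. Erap1, the peptide-trimming protease of the endoplasmic reticulum, stood at 0.31, and Pdia3, a chaperone of peptide loading, at 0.32, with adjusted p-values of 0.148 and 0.181 in limma. Without WT replicate 2 Erap1 was at 0.41 (adjusted p = 0.0146).

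The 6 ATPase genes of the cap (Psmc1 to Psmc6), whose ring unfolds substrates, lay close together. Their median log2 fold change was -0.10 with 6 of 6 lower, but -0.02 without the length and GC trend and 0.005 after quantile normalization. Single genes ran from -0.15 for Psmc5 to -0.01 for Psmc2, and no gene reached an unadjusted p of 0.05. Without WT replicate 5 the median was -0.05. Psmc2 ran from 1092 to 1185 normalized counts in WT and from 975.4 to 1261 in Chd8L+/- libraries.

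The 11 non-ATPase genes of the cap went both ways, with 6 lower and 5 higher and a median log2 fold change of -0.04, or 0.05 after quantile normalization. Psmd14, the deubiquitinase of the cap, stood at -0.08 (standard error 0.14), and Psmd4, a ubiquitin receptor, at -0.11 (standard error 0.09). Psmd3, a scaffold subunit, had the highest value of the cap at 0.24 (standard error 0.12, adjusted p = 0.246 in limma). Psmd8, a subunit of the cap's lid, had -0.21 (standard error 0.11, adjusted p = 0.226), and -0.30 (adjusted p = 0.0314) without WT replicate 2. Psmd3, Psmd4, Psmd8 and Psmd14 were chosen for mention after their values were seen.

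Psmd13 (chromosome 7, 140881968 to 140898643, plus strand, overlapping Sirt3 on the other strand and Gm15542 on its own), a lid subunit, had the smallest p of all 48 genes. Its normalized counts were 1617, 1499, 2050, 1951 and 2020 in WT, and from 1250 through a median of 1460 to 1598 in Chd8L+/- libraries. Replicates 1 and 2 of WT, whose names open with A, were lower than the other 3 WT libraries, 5 Chd8L+/- libraries lay below all WT libraries, and the other 2 lay above WT replicate 2 alone. Its log2 fold change was -0.34 (standard error 0.11, 95% interval -0.58 to -0.10, adjusted p = 0.125 in limma, unadjusted p = 0.00505 in a two-sided exact permutation test). Without WT replicate 2 it was -0.41 (adjusted p = 0.0146 in limma), with the length and GC trend removed -0.29, and after quantile normalization -0.22. Within the letters A, B and C of the library names it was -0.06, -0.45 and -0.59.

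Psmd10 (chromosome X, 140948429 to 140956728, minus strand) encodes gankyrin, a chaperone of cap assembly that is also known as an oncoprotein. Its normalized counts were 440, 365, 539, 448 and 607 in WT, and from 324 through a median of 340 to 444 in Chd8L+/- libraries. Each Chd8L+/- library was under the median of WT, and 5 were under all WT libraries. The log2 fold change was -0.41 (standard error 0.14, 95% interval -0.70 to -0.12, adjusted p = 0.126 in limma, unadjusted p = 0.0101 in a two-sided exact permutation test), and -0.50 (adjusted p = 0.0136 in limma) without WT replicate 2. It was -0.16, -0.69 and -0.66 within the letters A, B and C. The other chaperones of the cap, Psmd9 and Psmd5, had log2 fold changes of -0.20 (standard error 0.11) and -0.06 (standard error 0.13).

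The activators open the core in place of the cap, and Psmf1 encodes an inhibitor. Of these 6 genes 3 were lower and 3 higher, with a median log2 fold change of -0.08 and none at an unadjusted p of 0.05. The lower genes were Psme1, Psme2 and Psme2b of the interferon-inducible activator. Psme3, of a nuclear activator, Psme4, of a large single-chain activator, and Psmf1 had values from 0.02 to 0.06.

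Psme1 (chromosome 14, 55578123 to 55581529, plus strand, overlapping Emc9 on the other strand) had 2779, 2519, 2729, 2404 and 3009 normalized counts in WT, and from 2052 through a median of 2483 to 2693 in Chd8L+/- libraries. Each Chd8L+/- library was under the median of WT, and the log2 fold change was -0.17 (standard error 0.10, adjusted p = 0.31 in limma), or -0.02 with the length and GC trend removed.

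Psme2 (chromosome 14, 55587441 to 55591113, minus strand) had 1827, 1627, 2043, 1583 and 2491 normalized counts in WT, and from 1163 through a median of 1697 to 1884 in Chd8L+/- libraries. The groups overlapped over most of their range, and Psme2 stood at -0.26 on the log2 scale (standard error 0.16, adjusted p = 0.318 in limma), or -0.09 with the length and GC trend removed. Psme2b on chromosome 11 is a copy of Psme2 nearly identical in sequence, so reads of the pair may have been split between them in the counting. Psme2b held between 63.5% and 69.3% of the sum of both. That sum was 5425, 4861, 5990, 4850 and 7291 in WT, and from 3557 through a median of 5109 to 5833 in Chd8L+/- libraries, a log2 difference of -0.23 (two-sided exact permutation test, p = 0.158). Psme2 also followed the letters, at 0.05 within A, -0.08 within B and -0.66 within C.

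The 4 Psmg chaperones, which pair up and guide the alpha ring as the core is built, had the highest median log2 fold change of the subunit and chaperone groups, 0.31 with 3 of 4 higher, which was 0.52 with 4 of 4 higher without the length and GC trend and 0.17 with 2 of 4 higher after quantile normalization. They are also among the genes of fewest reads. Psmg1 (chosen after its values were seen, as was Psmg2) had 131, 263, 90.7, 90.3 and 153 normalized counts in WT, and from 161 through a median of 185 to 299 in Chd8L+/- libraries. All 7 Chd8L+/- libraries lay above 4 of the 5 WT libraries, and WT replicate 2 was second only to Chd8L+/- replicate 6. It stood at 0.52 on the log2 scale (standard error 0.25, adjusted p = 0.219 in limma), and 0.76 (adjusted p = 0.0164) without WT replicate 2.

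Psmg2 had 149, 223, 61.5, 88.3 and 125 normalized counts in WT, and from 149 through a median of 164 to 247 in Chd8L+/- libraries. WT replicate 2 was again second to Chd8L+/- replicate 6, and the groups overlapped. It stood at 0.55 on the log2 scale (standard error 0.26, adjusted p = 0.212 in limma), and 0.78 (adjusted p = 0.0228) without WT replicate 2. Within the letters A, B and C it was -0.06, 0.75 and 1.54, beside 0.11, 0.69 and 1.12 for Psmg1. Psmg3 stood at -0.02 (standard error 0.19) and Psmg4 at 0.10 (standard error 0.23).

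Pomp, the maturation factor of the core that acts with the Psmg chaperones, is outside the 48 genes. It had 2146, 1674, 2768, 2414 and 2750 normalized counts in WT, and from 1349 through a median of 1688 to 1991 in Chd8L+/- libraries. Its lowest WT library was again replicate 2, and its difference of -0.48 on the log2 scale (standard error 0.14, adjusted p = 0.121 in limma) was opposite in sign to those of Psmg1 and Psmg2. Without that library it was -0.60 (adjusted p = 0.0051 in limma), and within the letters A, B and C it was -0.18, -0.61 and -0.86.

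**Figure D4:**
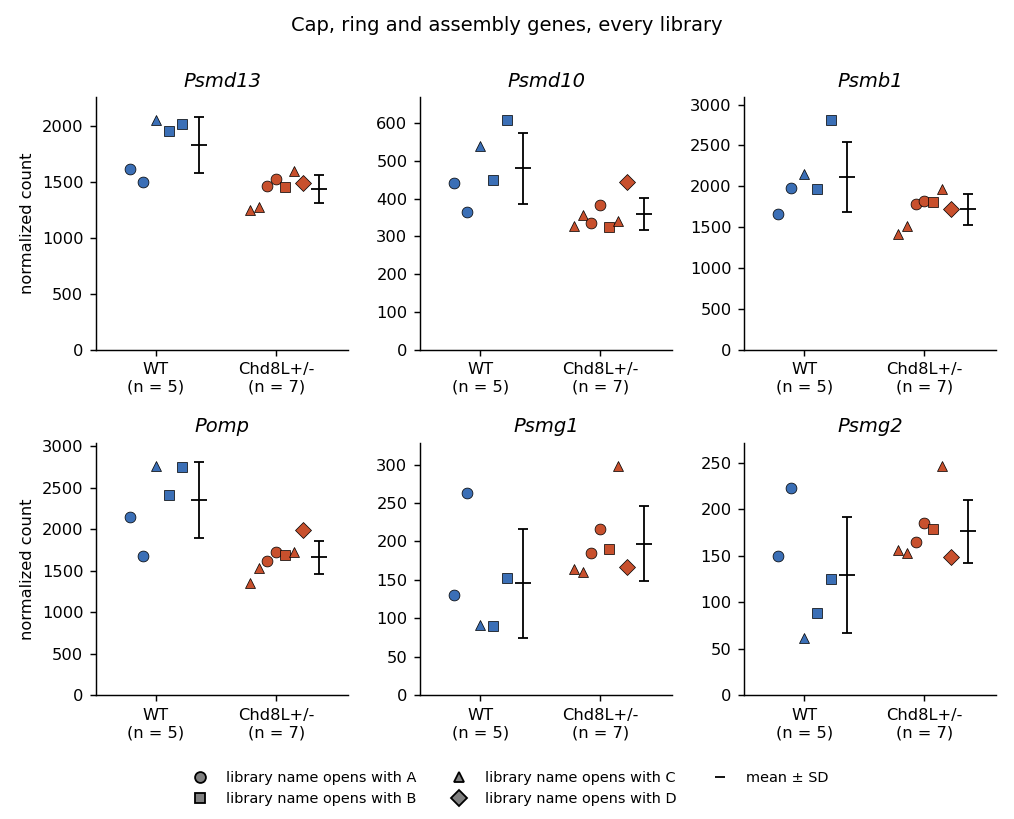
Normalized count in every library (points, with the marker shape giving the opening letter of the library name) and mean ± SD (bars) of Psmd13, Psmd10, Psmb1, Pomp, Psmg1 and Psmg2 in 5 WT and 7 Chd8L+/- libraries. WT replicate 2 lies with the Chd8L+/- libraries for Psmd13, Psmd10, Pomp, Psmg1 and Psmg2, at 1499, 365, 1674, 263 and 223 normalized counts.

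Of 17 accessory genes of the proteasome tested, 8 were lower and 9 higher, with a median log2 fold change of 0.002 (-0.07 without the length and GC trend). The unadjusted p was below 0.05 for 2, both lower, Pomp and Akirin2, a factor of nuclear import of the proteasome, at -0.25 (standard error 0.10, adjusted p = 0.154 in limma), and at -0.30 (adjusted p = 0.0356) without WT replicate 2. The highest was Usp14, a deubiquitinase bound to the cap, at 0.38 (standard error 0.20, adjusted p = 0.239), and at 0.54 (adjusted p = 0.0371) without that library. Of 11 genes of ubiquitin and its conjugation, 6 were lower and 5 higher (3 and 8 after quantile normalization), and 0 had an unadjusted p below 0.05 in limma. The conjugating enzymes Ube2d3 and Ube2k stood at -0.29 and -0.22, the deubiquitinase Uchl3 at 0.31 and the activating enzyme Uba6 at 0.30. Uchl3 was at 0.44 (adjusted p = 0.0357 in limma) without WT replicate 2.

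Psmc3ip, the recombination factor caught by the symbol rule, had 24.0, 51.7, 24.2, 13.9 and 30.1 normalized counts in WT, and from 18.9 through a median of 32.0 to 57.4 in Chd8L+/- libraries. The groups overlapped, at 0.22 on the log2 scale (standard error 0.33, adjusted p = 0.699 in limma).

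Across libraries, the groups of proteasome genes did not vary as one. The mean log2 deviation of the 14 core genes from their average over all libraries ran from -0.08 to 0.36 in WT and from -0.39 to 0.17 in Chd8L+/-, while that of the 20 cap genes stayed between -0.004 and 0.12 in WT and between -0.15 and 0.07 in Chd8L+/-. Chd8L+/- replicates 1 and 2 were the lowest for the core (-0.39 and -0.25) and for the immunoproteasome genes (-0.62 and -0.51). For the cap, whose range was narrower, they stood at -0.08 and -0.05, also below every WT library but not the lowest. WT replicate 5, the library of fewest reads, was the highest for the core at 0.36. Chd8L+/- replicate 6 combined a core value of 0.17 with an immunoproteasome value of -0.32, and replicate 3 had 0.06 and 0.47. The core and immunoproteasome values of the groups overlapped. The part that depth, or the number of genes in each mean, had in these ranges was not tested. Gene by gene, the median coefficient of variation was 12.8% in WT and 14.5% in Chd8L+/- for the core, and 11.0% and 9.81% for the cap.

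**Figure D5:**
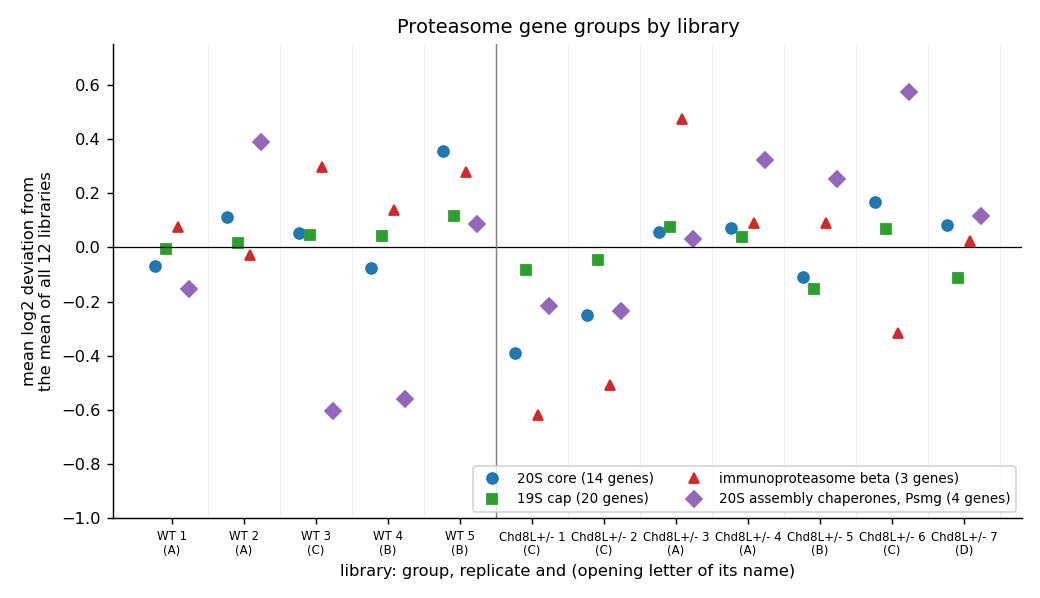
Mean log2 deviation from the average of all 12 libraries for the core (14 genes), the cap (20 genes), the immunoproteasome beta genes (3) and the Psmg chaperones (4), by library, with the opening letter of the library name in brackets. The cap stays between -0.15 and 0.12 in every library, while the immunoproteasome genes range from -0.62 to 0.47 and the Psmg chaperones from -0.60 to 0.57.

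Beyond the shared function, the 48 genes lay on 16 chromosomes, with 5 of them on chromosome 14, the chromosome of Chd8. Of the 48, 19 overlap an annotated gene on the opposite strand and 10 on the same strand, and the reads of such overlaps cannot be told apart here. The median coefficient of variation among libraries was 12.9% in WT and 13.6% in Chd8L+/-, beside 23.9% and 21.5% for all genes tested. With standard errors of 0.086 to 0.33 on the log2 scale, differences near that size could not be resolved by these libraries.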

How the data were processed

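The authors sequenced poly(A) libraries of gut epithelial cells from 5 WT and 7 Chd8L+/- mice as 75-base single-end reads, mapped them to mm10 with Tophat2 and ran DESeq2. Whether the counting used strand is not given in the sources used here. The deposited signal of each gene is its read count divided by a size factor. Multiplying it out gave whole reads for 100% of the values, within 0.000147. Columns were matched to mice by the library name, and 0 were left over.

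Genotypes were compared with limma 3.58.1 (R 4.3.3, trend) on log2(value + 1), for the 12808 genes averaging 10 or more, with Benjamini-Hochberg adjustment and a threshold of 0.05. The count test was not used as the main one, because the table holds normalized values. For single values, labels were permuted over libraries (exact, two-sided). For single genes these p-values are unadjusted, come from the same values as the limma fit and are a description. The exact permutation p was 0.0442 for Psmb5, 0.155 for Psmb6, 0.193 for Psmb7 and 0.135 for Psmb8. It was 0.809 for Psmb9, 0.0581 for Psme1 and 0.149 for Psme2. Alternatives were pseudocounts of 0.5 and 5, other filters, quantile normalization, edgeR 4.0.16, DESeq2 1.42.0, blocks on the replicate number or on the letter of the library name, removal of the trend on transcript length and GC content (splines with 4 degrees of freedom), and leaving out each library. Transcripts came from GENCODE M21 (GRCm38) and promoters from RefSeq. The fit was tested on simulated reads with larger differences than those of the proteasome genes, so recovery of differences of their size was not tested.

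Values in every WT library, and the lowest, median and highest of Chd8L+/-, are given for the 6 catalytic subunits, Psme1, Psme2 and the proteasome genes with the smallest p among those at 0.05 or less. The members, gene lists and tests were chosen with earlier results of these data known. P-values set the differences between genotypes against the spread between these mice, which the main fit takes as independent. How the mice fell into litters is not given in the sources used here.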

Additional observations from a re-analysis of the deposited data

Results flagged for a closer look

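Among 38 groups of values tested for a library far from the others (the 11 genes with values for each WT library, the 3 pairs of subunits and the 5 gene group means, in each genotype), 1 stood out, and chance alone marks about 1 group in 20. Psmb6 in WT replicate 5 had a normalized count of 2281, where the other 4 WT libraries had 1423 to 1607. The same library was the highest in WT for every other alpha-ring and constitutive beta-ring gene except Psmb7, and without it the log2 fold change of Psmb6 was -0.11.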

How the results depend on the processing

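Of the alternative values of the counts, medians and pairs, 191 kept their direction and side of the threshold or moved by less than the spread between libraries, 17 moved further and 1 passed the threshold. The count of proteasome genes at an adjusted p of 0.05 or less, 0 in limma, was 1 with DESeq2, 5 with the length and GC trend removed and WT replicate 2 left out (chosen after seeing the data, as were the values within letters, the sum of Psme2 and Psme2b and the overlap of groups without WT replicate 2), and 0 to 6 with each library left out, the 6 without WT replicate 2. The count at an unadjusted p, 5, was 3 with quantile normalization and with edgeR, 8 with the trend removed, 11 with the trend removed and WT replicate 2 left out, and 3 to 8 with each library left out. It was 8 without WT replicate 2 and fell to 3 without WT replicate 4 or 5 and without Chd8L+/- replicate 1, 4 or 5. The median log2 fold change of the constitutive beta ring was -0.0127 with the trend removed and 7.37e-05 also without WT replicate 2, and that of the ATPases was 0.00546 with quantile normalization and -0.0219 with the trend removed. Psmb10 minus Psmb7 ranged from -0.247 to -0.12 with each library left out. Psmb9 turned positive with edgeR (0.0177), DESeq2 (0.00301), the letter block (0.0540), the trend removed (0.0594) and that without WT replicate 2 (0.0617), and with each library left out it ranged from -0.190 to 0.0388, positive without Chd8L+/- replicate 1 or 2. With the trend removed and WT replicate 2 left out, Psmb6 (7.37e-05) and Psmb7 (0.00611) also turned positive. The cause was not tested. The replicate numbers did not pair the mice (correlations of deviations -0.34 to 0.19), and the replicate block gave 0 genes at an adjusted p and 5 at an unadjusted one. Psmb10 minus Psmb7 was -0.11 with the replicate block. With 5 and 7 mice, small differences of single genes could not be resolved.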
